A study of Mus musculus with 4 samples.

Results

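Cytotoxic T cells of the mouse pancreas whose T cell receptor beta chain used the variable segment Trbv13-3 are described here. The members were chosen from single-cell RNA counts by a fixed rule. A cell barcode of either pancreas library qualified when it showed 500 or more genes, no more than 10% of molecules from mitochondrial genes, at least 1 molecule of Cd3e, Cd3d or Cd3g, at least 1 of Cd8a or Cd8b1, none of Cd4, and Trbv13-3 as its most counted Trbv gene. This gave 138 members, 74 from the control library and 64 from the CD4-Cre library, out of 1129 CD8 barcodes with a single most counted Trbv gene and 10794 kept barcodes in the pancreas. Molecules were counted by unique molecular identifiers (UMIs), and a barcode stands for 1 droplet that usually holds 1 cell.

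All libraries came from pre-diabetic female mice carrying floxed alleles of Ocab, the older name of Pou2af1, a transcriptional coactivator best known from B cells. Control animals were Ocabfl/fl. The other animals were Ocabfl/fl.CD4-Cre, in which Cre is driven by the Cd4 promoter, and since developing T cells pass through a stage with both CD4 and CD8 this Cre can delete Ocab in CD8 T cells as well as in CD4 T cells. CD45+ leukocytes were sorted from the pancreas at 12 weeks of age, with 4 mice pooled per library, and CD3+ T cells were enriched magnetically from the pancreatic lymph nodes at 8 weeks, with 5 mice pooled per library. The labels name no strain. Each tissue and genotype had 1 library, so no difference below has a replicate check, no p-value was computed, and all intervals are 95% intervals of counting error only.

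Each T cell assembles its receptor from an alpha and a beta chain, and the variable segment of each chain contributes the loops that touch the peptide and the MHC molecule. CD8 T cells that see beta cell peptides on class I MHC can kill beta cells, and in the non-obese diabetic mouse a well-studied group of such cells pairs an alpha chain of the Trav16 family with a Trbv13-3 beta chain. A variable segment does not by itself identify what a receptor recognises. The joining segments and the junction were not resolved by these counts (the 74 Trbj and Traj features held 0 UMIs in kept barcodes), so barcodes sharing a segment pair cannot be assigned to clones.

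The segments on which the results turn are shown with the last 280 bases of their annotated transcripts, because the reads of these segments had to be assigned to near-identical copies. In the 3 Trav16 family segments, capitals mark the 6 positions at which these copies differ from each other. In Trbv13-3, capitals mark the 16 positions at which Trbv13-1 and Trbv13-2 both carry another base. Sequences and positions are from GENCODE M21 (GRCm38), all on the + strand, 5′ to 3′.
Trbv13-3: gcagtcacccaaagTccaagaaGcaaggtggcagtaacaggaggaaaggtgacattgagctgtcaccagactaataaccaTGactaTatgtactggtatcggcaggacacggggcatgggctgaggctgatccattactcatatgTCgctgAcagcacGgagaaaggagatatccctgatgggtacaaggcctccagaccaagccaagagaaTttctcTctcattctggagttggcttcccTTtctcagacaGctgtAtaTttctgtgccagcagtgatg
Trav16d-dv11: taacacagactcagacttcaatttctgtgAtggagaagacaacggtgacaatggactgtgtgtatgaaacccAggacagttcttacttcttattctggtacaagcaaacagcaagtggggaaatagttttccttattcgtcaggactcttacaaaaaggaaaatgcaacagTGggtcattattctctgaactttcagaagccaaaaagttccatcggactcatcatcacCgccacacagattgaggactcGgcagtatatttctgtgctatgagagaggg
Trav16n: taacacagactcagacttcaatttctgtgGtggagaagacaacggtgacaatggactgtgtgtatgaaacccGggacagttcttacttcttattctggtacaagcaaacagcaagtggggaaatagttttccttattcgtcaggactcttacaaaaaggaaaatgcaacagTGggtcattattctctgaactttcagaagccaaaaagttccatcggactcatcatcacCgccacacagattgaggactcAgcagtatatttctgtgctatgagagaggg
Trav16: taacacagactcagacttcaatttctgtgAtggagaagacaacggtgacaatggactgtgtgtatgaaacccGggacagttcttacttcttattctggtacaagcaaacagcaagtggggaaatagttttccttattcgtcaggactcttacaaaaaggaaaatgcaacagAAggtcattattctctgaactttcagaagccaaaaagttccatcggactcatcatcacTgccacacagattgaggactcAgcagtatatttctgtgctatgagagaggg
Trbv13-3 (ENSMUSG00000076470, chr6:41130147-41130585) was 91.4% identical to Trbv13-2 over these bases, with 24 differing positions, and 85.4% identical to Trbv13-1, with 41. Trav16d-dv11 (ENSMUSG00000076796, chr14:53047287-53047821) differed from Trav16n (chr14:53351028-53351621) at 3 positions and from Trav16 (chr14:53743104-53743705) at 5, and it shared an identical run of 177 bases with Trav16n. Counts of the single Trav16 copies are therefore uncertain, and the Trav16 family is given as the sum of its members.

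The pancreas libraries held 20807342 and 32798133 UMIs over 4524 and 6963 listed barcodes (control and CD4-Cre), and the lymph node libraries 14851217 and 27830077 over 3059 and 6528. Members had a median of 3682 UMIs in the control library (range 1022 to 19673) and 4453 in CD4-Cre (range 1421 to 26514), against 4241 and 4206 in the other CD8 barcodes. All 9 genes of a CD8 T cell marker list had UMIs in the members of both libraries. The rule itself used Trbv13-3, Cd3e, Cd3d, Cd3g, Cd8a and Cd8b1, so of this list only Trac, Trbc1 and Trbc2 lay outside it. The rule asked for Cd8a or Cd8b1, and both were seen in 68 of 74 control and 56 of 64 CD4-Cre members. At least 2 UMIs of B cell or macrophage genes were held by 5 control members (6.76%) and 4 CD4-Cre members (6.25%), and 5 control members (6.76%) and 11 CD4-Cre members (17.2%) exceeded 3 times their library's median depth, against 6.18% and 6.61% of other CD8 barcodes. Summed UMIs weight such deep barcodes. Barcodes of either kind are called possible doublets below, 7 members in control and 13 in CD4-Cre. Of those 13, 11 were deep and 4 held B cell or macrophage UMIs. Leaving them out thus mainly removes deep barcodes, which need not be doublets. No barcode sequence was shared between the members of the 2 pancreas libraries. The targeted gene, Pou2af1, had 0 UMIs in the 74 control members, which allows a UMI in up to 4.05% of such barcodes and sets no limit on cells expressing the gene. It had 2 UMIs in 2 CD4-Cre members, so it does not check the genotype in these cells.

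The values that chose the members were as follows. Members held 1 to 16 Trbv13-3 UMIs in control (median 6) and 2 to 61 in CD4-Cre (median 8). At the edge of the rule, 4 control members and 0 CD4-Cre members rested on a single Trbv13-3 UMI, while 9 control and 7 CD4-Cre CD8 barcodes held Trbv13-3 UMIs but more of another Trbv, or were tied. UMIs of a second Trbv were present in 37 members of each library, and Trbv13-3 supplied 85.8% and 90.6% of all Trbv UMIs in members.

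Trbv13-3 was the most frequent beta segment among control pancreas CD8 barcodes and not among those of the CD4-Cre pancreas. It was assigned to 74 of 430 control barcodes (17.2%, 95% exact interval 13.8 to 21.1), where the next segment, Trbv13-2, reached 9.30%. In the CD4-Cre pancreas it was assigned to 64 of 699 (9.16%, 7.12 to 11.5) and ranked 3. The CD4-Cre share was lower by 8.05 percentage points (interval of CD4-Cre minus control, -12.4 to -4.01). These pancreas shares are a description, since the cells were picked out with earlier results of these data known. In the lymph node libraries, which the rule did not use, the shares were 8.65% in control (6.69 to 10.9) and 7.49% in CD4-Cre (6.22 to 8.93), with a difference of -1.16 points (-3.75 to 1.18). The control pancreas was thus the library that stood apart from the other 3, whose intervals overlapped each other.

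The libraries differed in the barcodes that paired Trbv13-3 with a Trav16 family alpha segment. Such pairs made up 41 of 430 control CD8 barcodes (9.53%, 6.93 to 12.7) and 14 of 699 in CD4-Cre (2%, 1.10 to 3.34), against 0.837% and 1.05% in the lymph nodes. Trbv13-3 barcodes without a Trav16 family assignment made up 7.67% of CD8 barcodes in control pancreas (5.34 to 10.6), 7.15% in CD4-Cre pancreas (5.36 to 9.32), 7.81% in control lymph node and 6.44% in CD4-Cre lymph node. The counting intervals of these 4 shares overlapped. The shares include barcodes of unknown alpha family, with no Trav UMI or a tie. These were 20 in control and 16 in CD4-Cre pancreas, beside 13 and 34 with another assigned family.

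**Figure D1:**
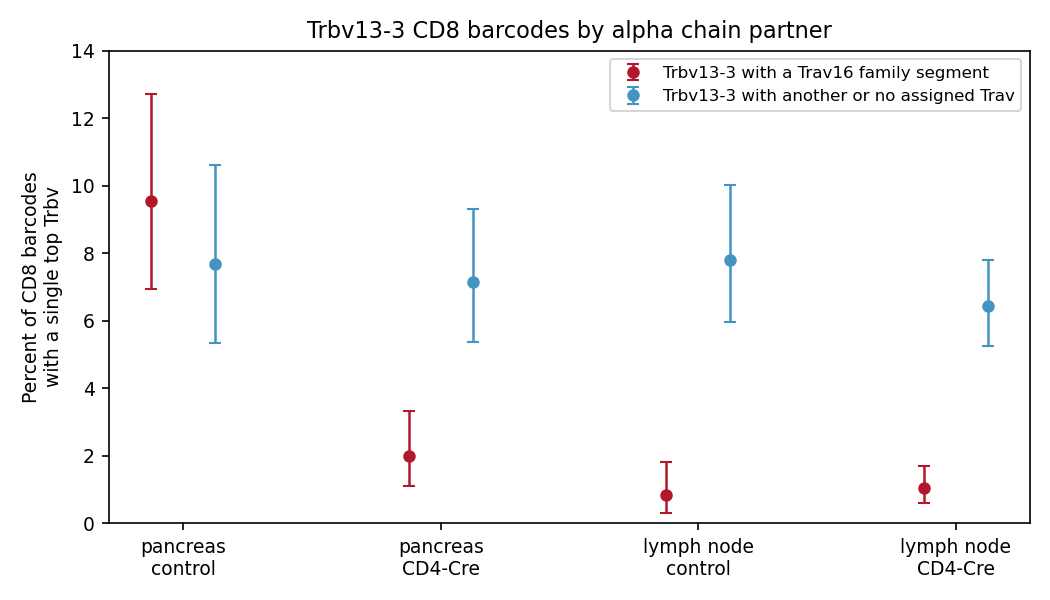
Share of CD8 barcodes (percent, y axis) assigned to Trbv13-3 in each of the 4 libraries, split by whether a Trav16 family segment was assigned. Bars are exact 95% intervals. Barcodes with Trav16 reached 9.53% in the control pancreas and between 0.837% and 2% elsewhere. Those without a Trav16 assignment lay between 6.44% and 7.81% in every library, and they include barcodes with no Trav UMI or a tie.

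An alpha family could be assigned to 54 of the 74 control members and 48 of the 64 CD4-Cre members. The remaining members had no Trav UMI (17 and 12) or a tie between families (3 and 4). Trav16 family segments were the top family in 41 of 54 control members (75.9%, 62.4 to 86.5) and in 14 of 48 CD4-Cre members (29.2%, 17.0 to 44.1), a difference of -46.8 points (-61.2 to -27.7). The other CD8 barcodes of the same libraries showed 11.7% and 11.1%, so members exceeded them by 64.2 points (50.6 to 74.2) in control and by 18.0 points (6.67 to 32.3) in CD4-Cre. In the lymph nodes the same difference was -0.909 points in control (-7.64 to 10.6) and 5.19 points in CD4-Cre (-1.26 to 14.1), both with intervals that include 0. Pairing of Trbv13-3 with Trav16 above the level of other beta segments was therefore measured in the pancreas libraries. It was not detectable with the 53 control and 96 CD4-Cre lymph node Trbv13-3 barcodes that had an assigned alpha family.

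Most Trav16 assignments fell on the copy Trav16d-dv11, whose sequence is printed above. At the level of single segments it accounted for 32 of 50 assigned control members (64.0%) and 11 of 47 CD4-Cre members (23.4%), against 8.99% and 5.93% of other CD8 barcodes. The near-identical copy Trav16n had 2 members in each library. Outside the Trav16 family the members were spread over many segments. The 4 most frequent were Trav13-1 with 1 control and 5 CD4-Cre members, Trav3-3 with 1 and 5, Trav12-3 with 0 and 4, and Trav13-2 with 1 and 3. The control members used 9 families, with Trav7 next after Trav16 (5 of 54, 9.26%), and the CD4-Cre members 13, with Trav13 next (8 of 48, 16.7%). Among other beta segments of control pancreas, Trbv17 had the next highest share of Trav16 partners (6 of 15, 40.0%).

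**Figure D2:**
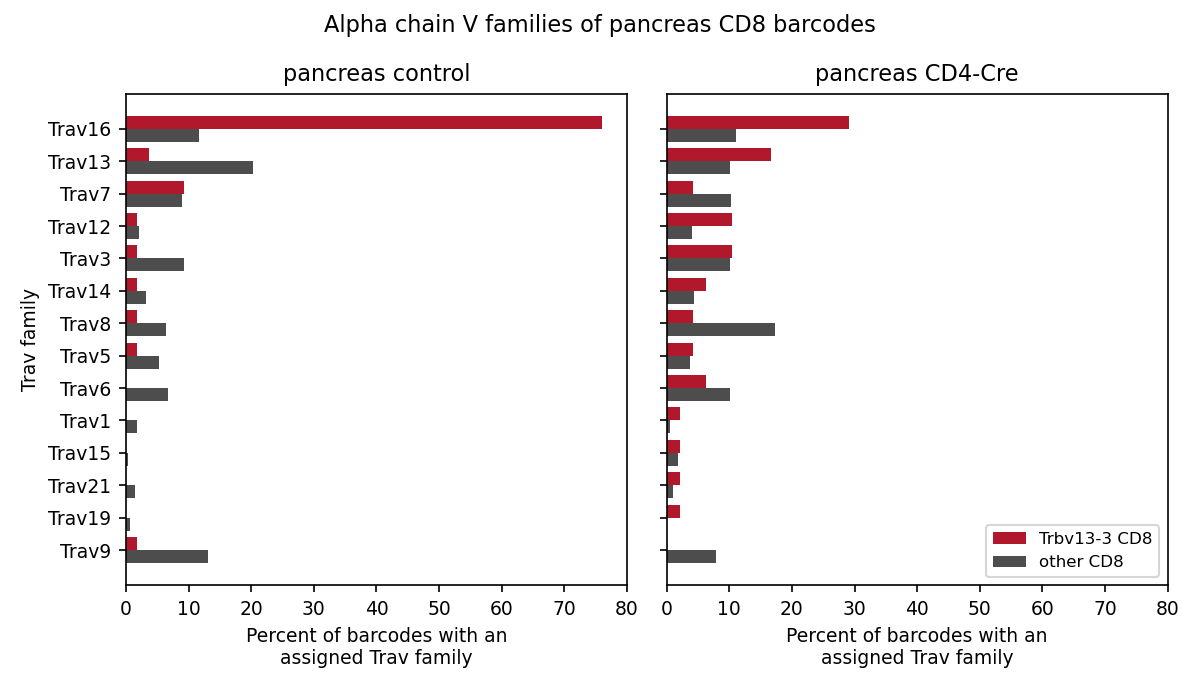
Share of barcodes with an assigned alpha family (percent, x axis) for each Trav family, in Trbv13-3 members and in other CD8 barcodes, one panel per pancreas library. Trav16 stands at 75.9% of control and 29.2% of CD4-Cre members, beside 11.7% and 11.1% of other CD8 barcodes.

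The beta chain constant genes were also counted. Trbc2 supplied 90.3% of Trbc UMIs in control Trav16 members and 85.1% in CD4-Cre Trav16 members. In members with another assigned Trav family the values were 78.6% and 51.5%, and in other CD8 barcodes 69.3% and 67.2%. Counted by barcode, among those with UMIs of a single constant gene, the shares with Trbc2 were close in CD4-Cre, at 85.7%, 88.9% and 83.5% for these groups, and in control they were 96.2%, 87.5% and 83.7%. Trbc1 and Trbc2 are near-identical genes, so the split of reads between them is uncertain.

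Members of the control pancreas carried more effector and inhibitory receptor RNA and less RNA of naive T cell genes than the other CD8 barcodes beside them. UMIs were summed over members and over other CD8 barcodes of the same library and scaled to the sum of each group as CPM. A gene entered when its member UMIs, plus those of the other CD8 barcodes scaled to the members' total, reached 20. Of the 14 naive genes, which mark T cells that recirculate through lymphoid organs, 11 could be used in control, and 10 of them were lower in members, with a median log2 ratio of -1.21 (interval -2.08 to -0.15) against 0.13 for all 4263 genes. Lower by more than 2-fold were 6 naive genes, where 1.9% of all genes lay lower and 2.98% higher by that much. In CD4-Cre all 14 could be used and 12 were lower, but the median was -0.35 and 0 passed 2-fold, with 2.32% of 4965 genes lower and 2.54% higher by that much.

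Several of these genes can be followed one at a time. Il7r, the receptor chain for the survival cytokine interleukin-7, was at 122 CPM in control members and 283 in other CD8 barcodes, and at 291 and 363 in CD4-Cre. S1pr1, the receptor that lets T cells leave tissue and lymph node, was at 27.5 and 123 CPM in control, and at 121 and 168 in CD4-Cre. The log2 ratio of S1pr1 was -2.16 in control (-3.31 to -1.22), and its CD4-Cre value was -0.48 (-0.92 to -0.06). Lef1, a transcription factor of naive and memory precursor T cells, stood at 94.6 against 235 CPM in control and 170 against 307 in CD4-Cre. Ccr7, the chemokine receptor for lymph node entry, was lower in control members (91.6 against 144 CPM) and higher in CD4-Cre members (333 against 258), and leaving out the CD4-Cre member barcode with most Ccr7 UMIs turned the latter log2 ratio from 0.37 to -0.46. The control ratio of Ccr7, -0.65, became 0.17 among barcodes with a single Trbv segment and 0.29 without Trav16d-dv11 barcodes.

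Of the genes of cytotoxic effector cells, most were higher in control members. In control 17 of 22 usable effector genes were higher (median log2 0.50, 0.02 to 0.86) and 4 passed 2-fold, where 2737 of 4263 genes were higher at all and 2.98% past 2-fold. In CD4-Cre 11 of 19 were higher (median 0.24, -0.36 to 0.85), and this count is near that of all genes, 2691 of 4965. There 4 effector genes were past 2-fold higher and 1 lower, beside 2.54% and 2.32% of all genes. Ccl5, a chemokine stored and released by memory and effector CD8 T cells, reached 26999 CPM in control members and 12594 in other CD8 barcodes, and 8226 and 8991 in CD4-Cre. Its log2 ratio in control was 1.10 (1.06 to 1.14), and the CD4-Cre value was -0.13 (-0.18 to -0.08). Nkg7, a protein of cytotoxic granules, was at 3684 and 2195 CPM in control, and at 2056 and 1744 in CD4-Cre. Ifng, the effector cytokine interferon gamma, was higher in members of both libraries, with 171 against 76.0 CPM in control and 106 against 58.9 in CD4-Cre. S100a6 behaved likewise at 2891 against 1518 and 2195 against 1215 CPM. Gzma, a granule protease, was carried by few members: 1 barcode held 45.2% of its member UMIs in control and 73.0% in CD4-Cre, and the ratio in CD4-Cre, 1.15, became -0.74 without that barcode. In CD4-Cre the small ratios of Ccl5 and Nkg7 also changed sign without possible doublets, to 0.14 and -0.081.

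In summed UMIs, inhibitory receptors and their regulators were higher in members of both libraries, less securely in CD4-Cre. These genes mark T cells under repeated antigen contact. In control 8 of 9 usable genes were higher, 5 of them past 2-fold (median log2 1.01, 0.70 to 1.29). In CD4-Cre 9 of 9 were higher, 1 past 2-fold (median 0.71, 0.42 to 0.97). Pdcd1, which encodes PD-1, was at 314 CPM in control members and 126 in other CD8 barcodes, and at 293 and 121 in CD4-Cre, giving log2 ratios of 1.32 (0.97 to 1.65) and 1.27 (0.97 to 1.56). Tox, a transcription factor of chronically stimulated T cells, was at 253 and 108 CPM in control, and at 147 and 106 in CD4-Cre. Lag3, which binds class II MHC, was at 281 and 167, and at 293 and 150. Tigit, a receptor for nectin-like ligands, was at 327 and 146, and at 210 and 129. In CD4-Cre the Pdcd1 ratio rested on few barcodes: it was -0.14 without the 13 members called possible doublets and -0.044 without barcodes assigned Trav16d-dv11. The CD4-Cre ratio of Tox, 0.47, became -0.015 without possible doublets.

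Genes of tissue residency split. In control, Itga1, the integrin chain CD49a that binds collagen, was higher in members (94.6 against 42.5 CPM), as were Cxcr6, a chemokine receptor of tissue T cells (778 against 456), and Rgs1, a brake on chemokine signalling (537 against 252). Itgae, the integrin chain CD103 that binds E-cadherin, was lower in members of both libraries, at 33.6 against 70.8 CPM in control and 18.9 against 67.3 in CD4-Cre, but its control ratio of -1.08 became 0.17 among barcodes with a single Trbv segment. In CD4-Cre 4 of 5 usable genes were lower in members, where 2274 of all 4965 genes were lower.

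**Figure D3:**
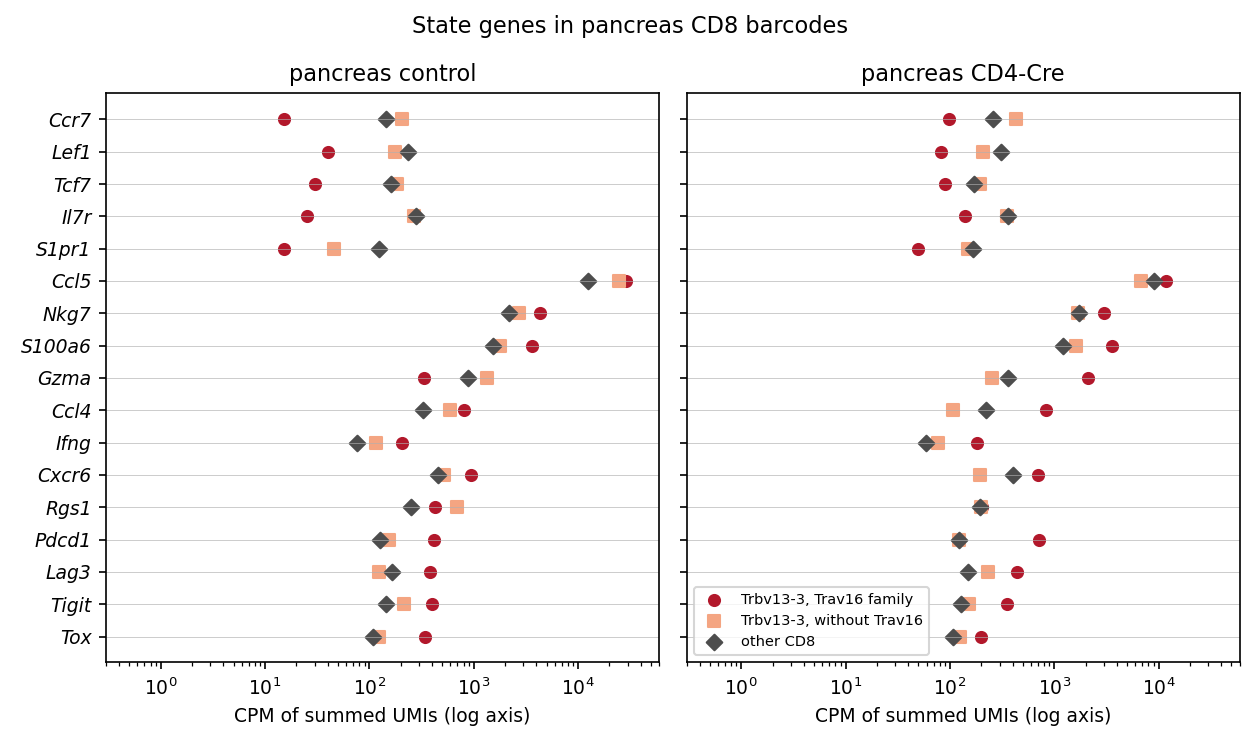
Summed expression of state genes (CPM, log x axis) in Trbv13-3 members with a Trav16 family partner, in members without one and in other CD8 barcodes, one panel per pancreas library. For the naive genes from Ccr7 to S1pr1 the Trav16 members lie lowest in both panels, and for Pdcd1, Lag3, Tigit and Tox they lie highest.

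The state of the members differed by alpha partner. Control members were divided into the 41 with a Trav16 family partner and the 33 without, and CD4-Cre members into 14 and 50. The 33 were 13 with another family and 20 with no Trav UMI or a tie, so some may carry an unseen Trav16 chain. The split did not use state genes. In control, 7 of 8 usable naive genes were lower in Trav16 members than in the other members (median log2 -2.36, -3.77 to 0.24), 6 past 2-fold lower, where 4.91% of 2910 genes lay lower and 8.76% higher by that much. The 7 usable inhibitory genes were all higher (median 1.45, 0.78 to 1.98), 4 past 2-fold, against a median of 0.10 for all genes. In summed UMIs of CD4-Cre the 10 usable naive genes were all lower (median -1.33, -3.63 to -1.04), 9 past 2-fold, where 3.92% of 1708 genes lay lower and 6.38% higher by that much. The shares of barcodes given below did not separate these CD4-Cre groups for Lef1 or Tcf7, or for Il7r. For Il7r they did not separate the control groups either. The 6 usable inhibitory genes were all higher there (median 0.86, 0.41 to 2.54), and 13 of 14 effector genes were higher (median 1.06, 0.28 to 1.72).

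Il7r was at 25.3 CPM in control Trav16 members and 269 in the other members, and at 139 and 352 in CD4-Cre. Pdcd1 was at 420 and 154 CPM in control, and at 712 and 123 in CD4-Cre. Lag3 was at 385 and 123, and at 442 and 233. Cxcr6 was at 947 and 523, and at 704 and 193. Ccl5 was the exception in control, close to equal at 28641 and 24507 CPM, and was at 11841 and 6760 in CD4-Cre. Rgs1 was lower in control Trav16 members, at 430 against 699 CPM.

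Shares of barcodes, unlike summed UMIs, give deep barcodes no extra weight. Each barcode was thinned to 1000 UMIs, which left out 0 members and 2 other CD8 barcodes in control. A UMI of Pdcd1, Lag3, Tigit or Tox was found in 28 of 41 control Trav16 members (68.3%), 8 of 33 other members (24.2%) and 99 of 354 other CD8 barcodes (28%). Without thinning these shares were 97.6%, 63.6% and 55.9%. The thinned difference between Trav16 and other members was 44.1 points (21.4 to 60.7). Cxcr6 was found in 68.3%, 30.3% and 28.8%, a difference between the member groups of 38.0 points (15.1 to 55.7), and unthinned in 85.4%, 54.5% and 49.7%. Thinned to 2000 UMIs, Cxcr6 was found in 65.8% of 38 Trav16 members, 53.3% of 30 other members and 37.2% of other CD8 barcodes, and the difference between the member groups was 12.5 points (-10.4 to 34.0), so its size depends on the thinning depth. The inhibitory difference at 2000 UMIs was 36.8 points (14.8 to 55.2). Ccl5 was found in 97.6%, 72.7% and 67.2%, a difference of 24.8 points (8.96 to 41.9), and unthinned in 100%, 75.8% and 71.3%. Lef1 or Tcf7 was found in 4.88%, 24.2% and 32.8%, and unthinned in 19.5%, 48.5% and 64.6%. In B cell barcodes of the control library, which should lack these RNAs, the thinned shares were 0.374%, 0.125%, 1.37% and 0.998%. Il7r was found after thinning in 4.88% of control Trav16 members and 18.2% of the other members. That difference was -13.3 points (-29.9 to 1.48), and unthinned it was -17.5 points (-35.5 to 0.164), both with intervals that include 0.

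Control members without a Trav16 partner did not separate from other CD8 barcodes in these shares. Their differences from other CD8 barcodes were -3.72 points for the inhibitory genes (-16.1 to 13.6), 1.49 for Cxcr6 (-12.3 to 19.1), 5.50 for Ccl5 (-12.1 to 18.7) and -8.53 for Lef1 or Tcf7 (-21.0 to 8.90). In summed UMIs their Ccl5 was nevertheless higher, at 24507 against 12594 CPM. The intervals of these 33 members are wide and do not show that the groups are alike. In CD4-Cre the 14 Trav16 members showed the inhibitory genes in 50% and the 50 other members in 30%, a difference of 20 points (-6.97 to 45.6). At 2000 UMIs the shares were 78.6% and 29.2%, a difference of 49.4 points (19.7 to 67.1), and unthinned 78.6% and 42%, so this difference also depends on the depth. Granzymes Gzma, Gzmb or Gzmk were found in 50% and 14% of these groups, a difference of 36.0 points (9.79 to 60.2), and unthinned in 57.1% and 28%. At 2000 UMIs the granzyme difference was 25 points (-1.99 to 50.3). Lef1 or Tcf7 was found in 14.3% of CD4-Cre Trav16 members and 32% of the other members, a difference of -17.7 points (-34.9 to 10.3). Unthinned, these shares were 71.4% and 74%. For Il7r the thinned difference was -10.6 points (-30.1 to 17.9). Trav16 members were also deeper there, with a median of 6956 UMIs, and the part of depth beyond thinning was not tested.

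**Figure D4:**
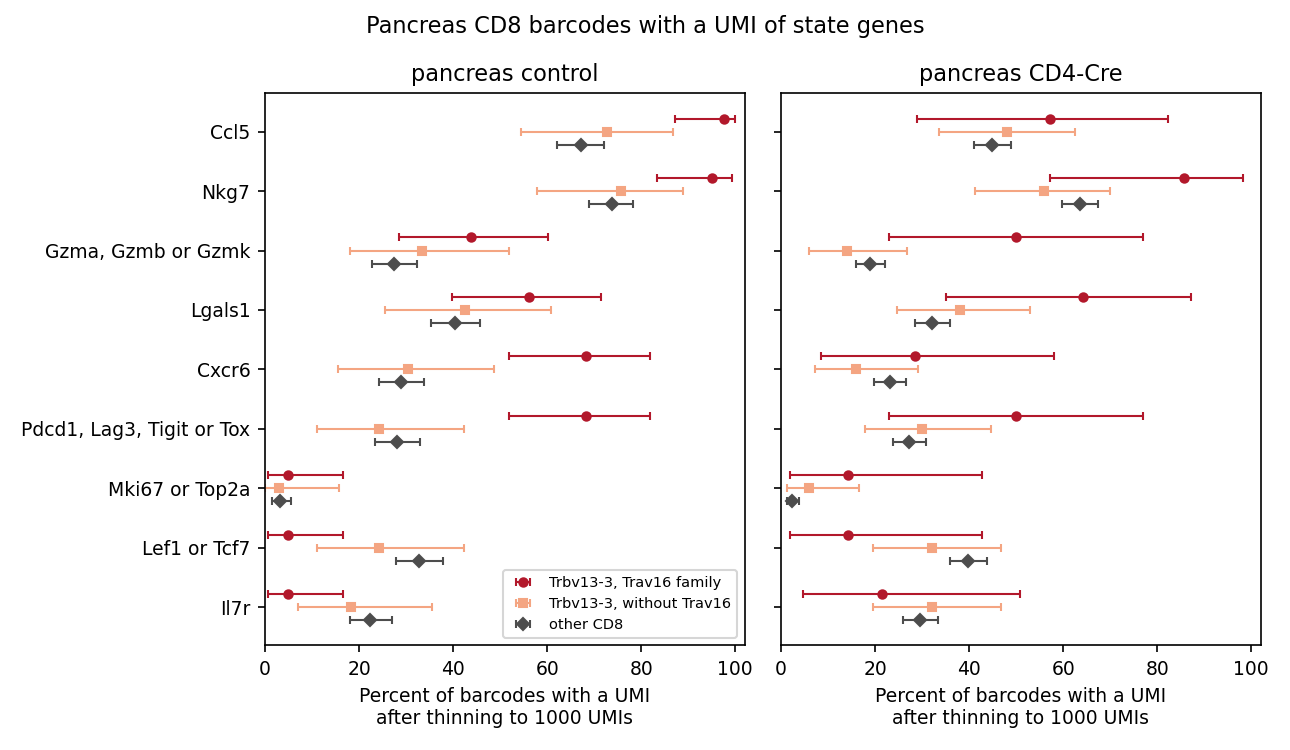
Share of barcodes with at least 1 UMI of each gene or gene set after thinning to 1000 UMIs (percent, x axis), for Trav16 members, other members and other CD8 barcodes of each pancreas library; bars are exact 95% intervals. In control the Trav16 members stand at 68.3% for the inhibitory set beside 24.2% and 28%, and in CD4-Cre the intervals of the 14 Trav16 members are wide.

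Ranking all genes by the smaller of the 2 library ratios named 10 genes higher and 10 lower in members of both libraries. Of 2486 genes eligible, 149 had intervals on the same side of 0 in both libraries (78 higher, 71 lower) and 30 on opposite sides. Lgalsl, a galectin-like protein, led the higher genes with 70.2 against 19.9 CPM in control and 54.4 against 19.4 in CD4-Cre. Pdcd1 came next. Klrc1, which encodes the inhibitory receptor NKG2A, stood at 284 against 156 and 239 against 103 CPM. Rrm2, Mcm3, Mcm5, Smc2 and Dut, genes of DNA replication and chromosomes, were also higher, but Rrm2 UMIs came from 3 control and 4 CD4-Cre members, with 74.2% of the control UMIs in 1 barcode. Without possible doublets the ratios of Mcm5 and Dut were -0.95 and -0.012 in control, and -0.15 and -0.12 in CD4-Cre. The proliferation list as a whole was higher in members, with 11 of 13 usable genes higher in control (median log2 0.40, 0.01 to 0.89), 1 past 2-fold higher and 1 lower. In CD4-Cre 14 of 14 were higher (median 1.33, 0.72 to 3), 11 past 2-fold. Past 2-fold lay 2.98% of all genes higher and 1.9% lower in control, and 2.54% higher and 2.32% lower in CD4-Cre. Within control members 9 of 9 were higher in those with Trav16 (median 2.40, 1.30 to 3.02), 9 past 2-fold, where 8.76% of 2910 genes lay higher by that much. Within CD4-Cre members 10 of 10 were higher in those with Trav16 (median 1.04, 0.68 to 2.71). The medians against other CD8 barcodes rest on few barcodes. In CD4-Cre that median was 0.14 without possible doublets and 0.12 without barcodes with a Mki67 or Top2a UMI. In control it was -0.49 without Trav16d-dv11 barcodes. The medians by alpha partner were not recomputed in this way, and Rrm2 entered with 31 UMIs in control Trav16 members and 0 in the others. A UMI of Mki67 or Top2a after thinning was found in 4.05% of control members and 7.81% of CD4-Cre members, and in 3.11% and 2.21% of other CD8 barcodes. In control it was found in 2 of 41 Trav16 members and 1 of 33 others, a difference of 1.85 points (-10.9 to 13.4). For CD4-Cre the counts were 2 of 14 and 3 of 50, a difference of 8.29 points (-6.21 to 34.2). Both intervals include 0. Gm19585 and Magohb completed the higher genes, with log2 ratios for Gm19585 of 1.15 and 1.34.

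The lower genes were mostly those of macrophages and antigen-presenting cells (Retnla, Lyz2, Ccl6, Alox5ap, C1qb, Ifitm3, H2-Ab1 and H2-DMa), with Itgae and Ifi214. Lyz2, macrophage lysozyme, was at 12.2 CPM in control members and 967 in other CD8 barcodes, and at 0 and 623 CPM in CD4-Cre. A list of 10 macrophage and dendritic cell markers summed to 30.5 CPM in control members and 1245 in other CD8 barcodes, and to 18.9 and 1010 in CD4-Cre. In control members 6 of these markers were at 0 (C1qa, C1qb, Csf1r, Itgam, S100a8 and Ear2), and in CD4-Cre members 7 were. Myeloid UMIs were present in 7 of 74 control members against 56 of 356 other CD8 barcodes, and in 6 of 64 against 92 of 635. B cell markers summed to 809 and 2442 CPM in control, and to 610 and 1554 in CD4-Cre, with 80.2% and 66.4% of the UMIs of other CD8 barcodes in 1 barcode each. Without possible doublets the CD4-Cre ratios of Retnla and H2-Ab1 were 0.91 and 0.58, above 0. The part of these cells' RNA in the ratios of other genes was not tested. The 8 NK cell markers were at 1081 and 928 CPM in control and 870 and 966 in CD4-Cre, and the gamma delta T cell markers at 574 and 322, and 503 and 265.

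Between genotypes, CD4-Cre members carried more naive and less effector and residency RNA than control members. Of 12 usable naive genes, 12 were higher in CD4-Cre members (median log2 0.91, 0.73 to 1.95), 5 past 2-fold, where 3.94% of 5050 genes lay higher and 7.35% lower by that much. Of 21 effector genes 18 were lower (median -0.56, -1.03 to -0.25), 6 past 2-fold, and of 7 residency genes 7 were lower (median -1.19, -2.74 to -0.37), 4 past 2-fold. The median over all genes was -0.08. In other CD8 barcodes the same medians were 0.40, -0.47 and -0.29, with 3.02% of 10082 genes higher and 3.06% lower past 2-fold. In bulk sums of this kind, fewer cells in a state and less RNA per cell cannot be told apart, and the genotype cannot be told apart from the library.

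Ccl5 was at 26999 CPM in control members and 8226 in CD4-Cre members, a log2 ratio of -1.71 (-1.77 to -1.66), and in other CD8 barcodes the ratio was -0.49 (-0.51 to -0.46). Cxcr6 was at 778 and 340 CPM (-1.19, -1.5 to -0.89), against -0.17 in other CD8 barcodes. Itga1 was at 94.6 and 14.2 CPM (-2.74, -4.29 to -1.46), and Rgs1 at 537 and 201 (-1.42, -1.81 to -1.04). S1pr1 was at 27.5 and 121 CPM, a log2 ratio of 2.13 (1.10 to 3.34), against 0.45 in other CD8 barcodes. Il7r was at 122 and 291 CPM (1.25, 0.73 to 1.80, and -0.23 among barcodes with a single Trbv segment), and Dapl1, a gene of naive T cells, at 30.5 and 149 (2.29, 1.31 to 3.41). Of the inhibitory genes 7 of 10 were lower in CD4-Cre members, where 2834 of all 5050 genes were lower. Their median was -0.33 (-0.80 to 0.55), and it was -0.97 without possible doublets and -0.85 with equal weight per barcode. After thinning to 1000 UMIs, Pdcd1, Lag3, Tigit or Tox was found in 48.6% of control and 34.4% of CD4-Cre members. That difference was -14.3 points (-29.6 to 2.19), with an interval that holds both signs. Thinned to 2000 UMIs, these shares were 70.6% and 40.3%, and unthinned 82.4% and 50%. The size of this difference therefore depends on the depth. Pdcd1 stood at 314 and 293 CPM (-0.10, -0.49 to 0.29).

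The genotypes were also compared within members with and without an assigned Trav16 partner, since the CD4-Cre library held fewer Trav16 pairs. Those without one included barcodes with no Trav UMI or a tie, 20 of 33 in control and 16 of 50 in CD4-Cre. Unseen Trav16 chains may therefore differ in number between these 2 groups, and the split does not match them for alpha partner. Among members without a Trav16 partner, 11 of 12 naive genes were higher in CD4-Cre with a median of 0.43 (0.09 to 1.11), where 7.5% of 3985 genes were higher and 8.53% lower past 2-fold. In that group 16 of 18 effector genes were lower (median -0.98, -1.86 to -0.38). Among Trav16 members, 9 of 18 effector genes were higher and 9 lower (median 0.03, -1.02 to 0.47), where 4.15% of 1784 genes were higher and 6.11% lower past 2-fold, and the 41 and 14 barcodes left 4 usable naive genes. Ccl5 was lower in CD4-Cre in both groups, with log2 ratios of -1.27 (-1.36 to -1.19) in Trav16 members and -1.86 (-1.94 to -1.78) in the others. In summed UMIs Pdcd1 was higher in CD4-Cre Trav16 members, at 712 against 420 CPM, but those barcodes were deeper (median 6956 against 3654 UMIs). By barcode after thinning, Pdcd1, Lag3, Tigit or Tox was found in 50% of CD4-Cre and 68.3% of control Trav16 members. That difference was -18.3 points (-44.5 to 9.49). After thinning, Ccl5 was found in 86.5% of control and 50% of CD4-Cre members, a difference of -36.5 points (-49.8 to -21.2), and in other CD8 barcodes the difference was -22.4 points (-28.4 to -16.0). For Cxcr6 the difference was -32.6 points in members (-46.1 to -16.8) and -5.75 in other CD8 barcodes (-11.6 to -0.109). Whether the genotype difference is larger in members than in other CD8 barcodes was not tested.

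**Figure D5:**
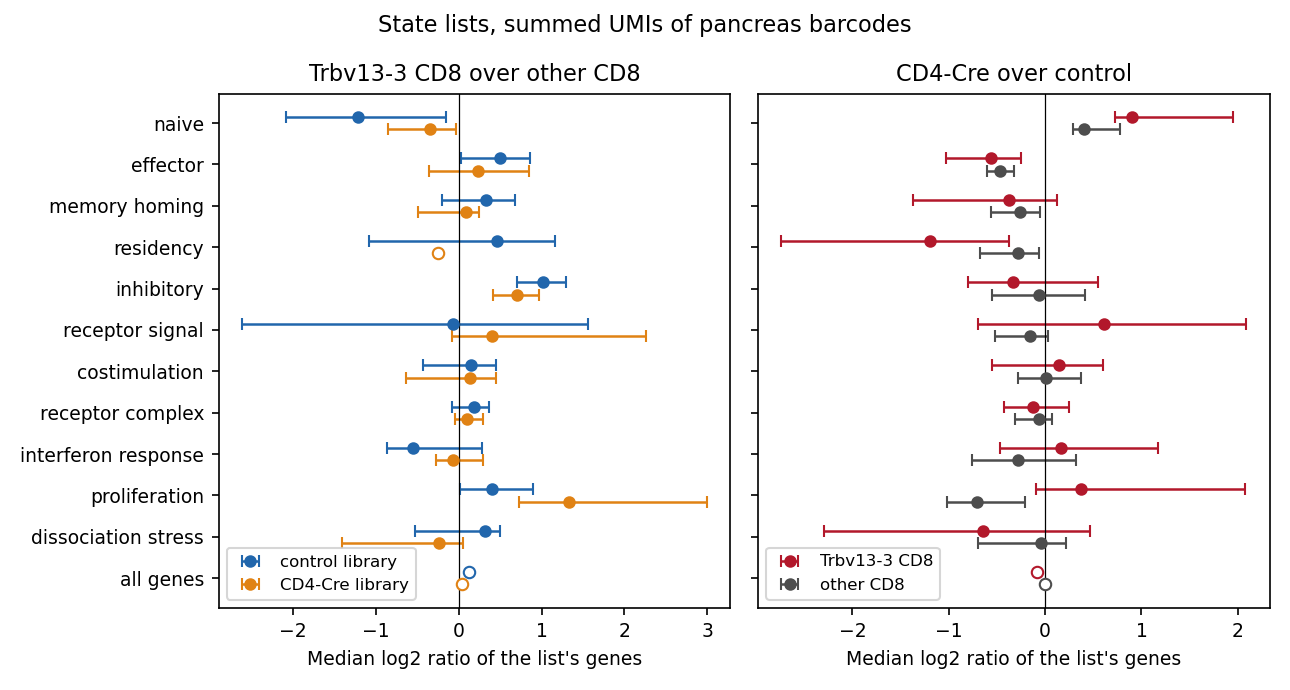
Median log2 ratio of each gene list (x axis) for members over other CD8 barcodes in each pancreas library (left) and for CD4-Cre over control in members and in other CD8 barcodes (right); bars are 95% order-statistic intervals over the genes, open points lists with fewer than 6 usable genes or all genes. The naive list lies at -1.21 in control members against other CD8 barcodes and at 0.91 in CD4-Cre against control members.

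Single genes that differed most between the genotypes in members included several with few carriers. Lower in CD4-Cre were Kcnc1, a potassium channel (91.6 and 11.8 CPM), Camk2n1, an inhibitor of CaM kinase (137 and 18.9), Cish, an inhibitor of cytokine and receptor signalling (116 and 23.6), Cd38, an NAD hydrolase of activated cells (94.6 and 21.3), S100a4 (336 and 75.6), Ccl3, a chemokine of activated effector cells (125 and 14.2), and Itga1. Their UMIs came from 20 or more control members for Kcnc1 (21), Camk2n1 (28), Cish (23) and Cd38 (20). Higher in CD4-Cre were Dtx1, a regulator of Notch signalling (9.16 and 87.4 CPM, 3 and 18 member barcodes), and Relb, a subunit of NF-kB (21.4 and 113 CPM, 7 and 18 barcodes). Fscn1, Marcksl1, Cd83 and Tyrobp were higher too, with log2 ratios of 6.27, 5.25, 3.54 and 2.49. Fscn1, Marcksl1, Cd83 and Relb are also known from mature dendritic cells, and a single CD4-Cre member barcode of 22140 UMIs held 100% of the Fscn1, 98% of the Marcksl1, 50% of the Cd83 and 41.7% of the Relb UMIs of CD4-Cre members. Without possible doublets the Relb ratio was 0.55, against 2.41. Ube2c, Ccnb2, Cdc20 and Kpna2, genes of mitosis, were higher as well, from 3 control and 6 CD4-Cre members for Ube2c and from 1 and 3 for Ccnb2. The Cdc20 ratio became -1.86 without possible doublets and -0.56 with a single Trbv segment, and that of Kpna2 became -2.14 with a single Trbv segment and -0.095 without Mki67 or Top2a barcodes. Gm20730 rested on 1 barcode, which held 100% of its UMIs in control members. Genes of dissociation stress were also lower in CD4-Cre members, 7 of 8 of them, where 2834 of all 5050 genes were lower. Their median was -0.65 (-2.30 to 0.47), and -0.04 in other CD8 barcodes. The part of these stress genes in the differences above was not tested.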

How the data were processed

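Gene expression was measured in 4 droplet libraries with a kit that reads the 5′ ends of transcripts. The deposited values are whole-number counts of UMIs per gene and barcode, without normalization, per the file headers, which give software version 3.0.0. The submitters' processing notes name Cell Ranger and mm10. The annotation used for counting is not given in the sources used here. The members, gene lists and comparisons were chosen with earlier results of these data known.

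Each barcode was assigned to the Trbv and Trav gene with most UMIs, and ties were left out. Counts were summed over members and over other CD8 barcodes, scaled to CPM, and compared as log2 ratios with the exact interval of 2 Poisson counts. A count of 0 was set to 3 UMIs for a ratio. A gene entered the lists when its UMIs in the first group of a comparison, plus those of the second scaled to the first group's total, reached 20. Either group alone could hold fewer, down to 0. A difference past 2-fold counted as called. Shares carry exact Clopper-Pearson intervals and share differences Newcombe intervals (statsmodels 0.14.6, scipy 1.17.1, Python 3.11.15). Intervals cover counting error only, and UMIs of a barcode are not independent animals. Intervals of list medians are order-statistic intervals over genes, which are not independent.

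Named genes were the 10 highest and 10 lowest by log2 ratio with intervals leaving out 0, plus genes of the state lists. For members against other CD8 barcodes this needed at least 20 observed or expected member UMIs in each library and the same sign in both. For CD4-Cre against control it needed at least 30 UMIs in the higher library and at least 1 in the other. The ranking skipped T cell receptor and immunoglobulin genes and those of haemoglobin, mitochondria, exocrine pancreas and islets. In simulated counts with 200 genes changed by 1.5 on the log2 scale, 99.5% were recovered in the comparison of members with other CD8 barcodes in the control pancreas. These were independent Poisson counts for genes with at least 20 expected member UMIs, without the gathering of UMIs in single barcodes. They check the calculation only and cannot tell how reliable the single-gene ratios of the real data are. No doublet caller was run, and possible doublets were left out as an alternative. Other alternatives changed the barcode filters, the Trbv rule, the scaling (edgeR 4.0.16 TMM, DESeq2 1.42.0 size factors), the minimum of UMIs, the thinning depth and the weight of barcodes. Leaving out the member barcode with most UMIs of a gene was added after seeing the data.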

Additional observations from a re-analysis of the deposited data

Results flagged for a closer look

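The 6 genes below, taken from the state lists, lay on opposite sides of 0 in the 2 pancreas libraries when members were set against other CD8 barcodes. Both counting intervals left out 0. Their signs also had to hold with equal weight per barcode, without possible doublets and without the top member barcode. Ccl5 met the interval criterion but not these. By intervals alone, 30 of the 2486 genes eligible for the ranking of both libraries lay on opposite sides. In each case the difference between the libraries was not tested. Ccl3, a chemokine of activated CD8 T cells, had log2 ratios of 1.16 in control and -2.49 in CD4-Cre, from 125 and 14.2 CPM in members. Cd226, an activating receptor that shares ligands with Tigit, had ratios of 0.72 and -0.75. Cd28, the main costimulatory receptor of naive T cells, had ratios of -0.65 and 0.43. Id2, a transcriptional regulator of effector differentiation, had ratios of 0.32 and -0.36, and Ptprc, which encodes CD45, 0.28 and -0.22. Ube2c, a gene of mitosis, had ratios of -1.66 and 4.08, from 3 control and 6 CD4-Cre members. The opposite signs were lost for Ube2c, whose control ratio was 0.23 without Mki67 or Top2a barcodes and whose CD4-Cre ratio was -1.41 with a single Trbv segment, and for Id2, whose CD4-Cre ratio was 0.14 with a single Trbv segment.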

How the results depend on the processing

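No paired analysis was possible because each tissue and genotype had 1 library, and for the same reason no replicate could be left out. Of the values under alternatives that answer a comparison, 606 stayed within the limits set for the main value, 44 moved outside them and 2 were reversed. Of those for single genes, 1922 stayed, 218 moved and 61 were reversed. Reversed means a change of sign where the main limits left out 0. Other changes of sign are counted as stayed or moved. Examples are the control interferon median against other CD8 barcodes (-0.55, then 0.35) and the proliferation median between genotypes (0.37, then -0.48). The cause of these changes was not tested. The main proliferation medians against other CD8 barcodes were 0.40 in control and 1.33 in CD4-Cre. TMM and DESeq2 scaling shifted the log2 ratios of control members over other CD8 barcodes by -0.15 and -0.14, and those of CD4-Cre over control members by 0.09 and 0.14. The number of members, 74 and 64, limits all single-gene ratios.

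With barcodes of a single Trbv segment only, the Trbv13-3 share was 13.3% and 6.43% in the pancreas and 5.19% and 5.05% in the lymph node (control, CD4-Cre). Against other CD8 barcodes in control, the medians were 0.35 for interferon response and -0.49 for proliferation, and the gene ratios Rrm2 -0.59, Smc2 -0.81, Mcm5 -2.50, Dut -0.76, Magohb -0.62, Itgae 0.17 and Ccr7 0.17. In CD4-Cre the proliferation median was 0.33, and the ratios Ccl5 0.51, Id2 0.14 and Ube2c -1.41. Between genotypes the naive median was 0.64, and the ratios Kpna2 -2.14, Cdc20 -0.56 and Il7r -0.23.

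With all members as denominator, the control share of Trav16 was 55.4% for the family and 43.2% for Trav16d-dv11. With each barcode given equal weight, the inhibitory median between genotypes was -0.85. With all barcodes thinned to 1000 UMIs before the rule, the control share of Trbv13-3 was 22.3% and the pancreas difference -13.3 points.

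Without thinning, the shares of members with a UMI (control, CD4-Cre) were 71.6% and 46.9% for Cxcr6, 62.2% and 34.4% for the granzymes, 32.4% and 73.4% for Lef1 or Tcf7, 75.7% and 65.6% for Lgals1, 98.6% and 96.9% for Nkg7, 82.4% and 50% for the inhibitory genes, and 46.9% for Il7r in CD4-Cre. Thinned to 2000 UMIs they were 73.5% and 58.1% for Lgals1, 97.1% and 83.9% for Nkg7, 70.6% for the inhibitory genes in control, and 32.3% for Cxcr6 and 50% for Lef1 or Tcf7 in CD4-Cre.

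Without Trav16d-dv11 barcodes, the control proliferation median was -0.49, and the ratios Rrm2 -0.82, Smc2 -1.91, Mcm5 -0.63, Dut -0.77, Magohb -0.84, Gzma 0.64, Entpd1 -0.060, Ccr7 0.29 and Tcf7 0.14. In CD4-Cre the inhibitory median was 0.40, and the ratios Pdcd1 -0.044, Magohb -0.27, Nkg7 -0.085, Gzma -0.57, Ccl4 -1.12 and Il7r 0.034. Between genotypes the medians were 0.62 for naive, -1.10 for effector and 2.25 for proliferation genes.

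Without barcodes with a Mki67 or Top2a UMI, the control ratios were Gzma 0.37 and Ube2c 0.23. In CD4-Cre the medians were 0.35 for interferon response and 0.12 for proliferation, and the ratios Mcm3 -0.48, Smc2 -0.63, Dut -0.36, Ccl5 0.12, Tox -0.90 and Il7r 0.090. Between genotypes the medians were -1.11 for effector and -0.48 for proliferation genes, and Kpna2 was -0.095.

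Without possible doublets, the control ratios were Mcm5 -0.95, Dut -0.012, Alox5ap 2.13 and Gzma 0.33. In CD4-Cre the medians were 0.36 for inhibitory and 0.14 for proliferation genes, and the ratios Pdcd1 -0.14, Mcm3 -0.00010, Smc2 -0.032, Mcm5 -0.15, Dut -0.12, Magohb -0.069, Retnla 0.91, H2-Ab1 0.58, Ccl5 0.14, Nkg7 -0.081, Gzma -2.38, Ccl4 -0.90, Tox -0.015 and Nr4a2 -0.12. Between genotypes the medians were -1.23 for effector and -0.97 for inhibitory genes, and Cdc20 was -1.86.

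Without the member barcode holding most of a gene's UMIs, an alternative chosen after seeing the data, the control ratios were Rrm2 -0.32 and Smc2 -0.22, and the CD4-Cre ratios Gzma -0.74, Ccl4 -0.047 and Ccr7 -0.46.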

Other observations

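Other lists were measured as follows in members against other CD8 barcodes. Over all genes, 2737 of 4263 were higher and 1526 lower in control (median 0.13), and 2691 of 4965 higher and 2274 lower in CD4-Cre (median 0.04). The 16 receptor complex genes, from the CD3 chains to the kinases Lck and Zap70, lay near this in control. Their medians were 0.18 in control and 0.10 in CD4-Cre, with 11 of 16 higher in each. Interferon response genes were lower in 7 of 12 in control (median -0.55, -0.86 to 0.28) and in 7 of 12 in CD4-Cre (median -0.07, -0.27 to 0.29). Genes switched on by receptor signalling were higher in members for 3 of 8 in control (median -0.07) and for 9 of 11 in CD4-Cre (median 0.41). Nr4a2, an early gene of receptor signalling, was higher in members of both libraries, at 168 against 57.1 CPM and 92.2 against 50.8, but the CD4-Cre log2 ratio of 0.86 became -0.12 without possible doublets and 0.43 (-0.19 to 1) without its top barcode. Islet hormone UMIs were absent from the 74 control members and present in 4 of 64 CD4-Cre members, with 95.4% of them in 1 barcode.

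The Trbv13-3 share of CD4 barcodes was 3.39% in control pancreas and 5.13% in CD4-Cre pancreas, and 5.36% and 4.23% in the lymph nodes. Summed effector UMIs per barcode had a median of 36093 CPM in control Trav16 members, 17320 in the other control members and 10234 in other CD8 barcodes. In CD4-Cre the medians were 7116, 1884 and 1827.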
